A study of Homo sapiens with 12 samples.

Results

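Nucleoporins, importins and exportins are the proteins of the nuclear pore and of the carriers that pass through it. The genes described here are all those in the deposited table whose symbol begins with NUP, IPO or XPO and a number, with KPNA or KPNB and a number, or with TNPO and a number, together with XPOT. There were 42 such genes among 11963 with a named probe set, namely 21 nucleoporins, 7 KPN genes, 6 importins, 5 exportins and 3 transportins. Of the 42, 40 were bright enough to be tested, as were 7178 genes in all. A gene was tested when its mean log2 value over the 12 arrays reached 6.61, a signal of 85.7, the 40th percentile of all genes. KPNA5 and NUP62CL lay below that level.

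The nuclear pore complex is a ring of nucleoporins set into the nuclear envelope. The Y complex and the inner ring form its scaffold, nucleoporins with phenylalanine-glycine repeats fill the central channel, and filaments reach into the cytoplasm and a basket into the nucleus. Importin alpha proteins bind cargo that carries a nuclear localisation signal and hand it to importin beta, whereas the related importins, transportins and exportins bind their cargo directly. The GTPase RAN sets the direction, since its GTP-bound form releases imported cargo and loads exported cargo.

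The 12 arrays come from 5 established human melanoma lines that carry the V600E mutation of BRAF, namely SkMel-1, SkMel-5 and SkMel-28 together with SkMel-19 and Malme3M. Each line was cultured for 8 h with 0.1% DMSO, the solvent, or with 250 nM PLX4032 (vemurafenib), an inhibitor of RAF kinases. A dose of 1000 nM was given to SkMel-19 and Malme3M as well. Every line contributed 1 array at each of its doses, which makes the lines the replicates, 5 at 250 nM and 2 at 1000 nM, and their number limits the precision. Values for the 5 lines are given throughout in the order named above. Each array holds the RNA of a whole culture. The mean of its signals, without the highest and lowest 2%, was 500.1 on every array as deposited, so a change is relative to the other transcripts, and fewer cells of a kind cannot be told apart from less RNA per cell.

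The arrays carried the marks of melanocytes and of the drug. Of 8 melanocyte lineage markers 7 had a probe set that carries 1 gene symbol. All 7 were bright enough to be tested, although TYRP1 went down to 18.7 on its dimmest array. Of 8 fibroblast, 6 epithelial and 5 blood markers on the array, 2, 2 and 1 reached the filter, namely COL1A1 and LUM, KRT18 and CDH1, and LCP1. Summed fibroblast markers lay between 649 and 1770.0 in DMSO and between 626 and 2068 at 250 nM, epithelial markers between 694 and 4939 and between 639 and 5042, and blood markers between 167 and 2330 and between 163 and 2403. KRT18 fell (-0.77, SE 0.15, limma adjusted p = 0.00741), CDH1 stood at 0.72, SE 0.29, limma adjusted p = 0.0907 and did not pass, and the part of either in the results below was not tested. All 6 ERK output genes examined fell at 250 nM, with DUSP6 showing the largest change (-5.04, SE 0.57, limma adjusted p = 0.000679).

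The sequences upstream of 5 of the genes are shown first because these genes are among the 8 with the largest changes described below: NUP58, NUP62, NUP88 and NUP50 fell, and IPO13 rose. The 5 were picked from the 8 after their values were seen. Each is the 250 bases before the start site in RefSeq (GRCh38.p14), 5′ to 3′ on the strand of the gene, at chr13:25301375-25301624 (plus strand) for NUP58, chr19:49929505-49929754 (minus) for NUP62, chr17:5419663-5419912 (minus) for NUP88, chr22:45163675-45163924 (plus, the first of 2 start sites listed) for NUP50 and chr1:43946700-43946949 (plus) for IPO13. Capitals mark matches on either strand to 4 motifs, the E-box CACGTG bound by MYC with MAX, the NRF1 site (GCGCA followed by its reverse complement TGCGC), the ETS core CCGGAAG, and CCAAT bound by NF-Y.
NUP58: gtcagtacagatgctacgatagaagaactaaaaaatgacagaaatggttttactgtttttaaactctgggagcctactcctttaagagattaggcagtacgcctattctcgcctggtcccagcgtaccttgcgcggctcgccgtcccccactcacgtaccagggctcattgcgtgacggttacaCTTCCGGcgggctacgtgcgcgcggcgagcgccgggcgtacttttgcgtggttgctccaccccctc
NUP62: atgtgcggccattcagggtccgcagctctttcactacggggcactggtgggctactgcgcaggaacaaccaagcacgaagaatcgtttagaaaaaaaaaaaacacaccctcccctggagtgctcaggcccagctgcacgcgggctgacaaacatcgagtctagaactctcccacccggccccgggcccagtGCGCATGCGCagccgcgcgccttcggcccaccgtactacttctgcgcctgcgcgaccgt
NUP88: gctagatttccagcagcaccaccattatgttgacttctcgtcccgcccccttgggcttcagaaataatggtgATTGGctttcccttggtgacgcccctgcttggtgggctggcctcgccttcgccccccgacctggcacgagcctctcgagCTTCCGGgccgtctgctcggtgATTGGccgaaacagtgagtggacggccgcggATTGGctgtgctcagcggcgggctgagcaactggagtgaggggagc
NUP50: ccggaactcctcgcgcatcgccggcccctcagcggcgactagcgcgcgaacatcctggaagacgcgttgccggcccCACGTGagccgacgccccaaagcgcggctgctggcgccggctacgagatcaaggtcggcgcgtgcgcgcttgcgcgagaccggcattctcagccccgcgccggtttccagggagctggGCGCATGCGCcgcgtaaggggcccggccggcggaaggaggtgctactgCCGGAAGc
IPO13: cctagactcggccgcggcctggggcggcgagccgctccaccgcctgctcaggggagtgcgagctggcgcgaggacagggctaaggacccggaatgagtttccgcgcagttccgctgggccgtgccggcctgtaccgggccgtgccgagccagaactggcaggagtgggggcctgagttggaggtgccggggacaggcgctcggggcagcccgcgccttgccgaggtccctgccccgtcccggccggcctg

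In these windows NUP58 held the ETS core as CTTCCGG, 66 bases before the start, NUP62 held the NRF1 motif 59 bases before it, and NUP88 held the ETS core at 99 bases and CCAAT, as ATTGG, at 178, 77 and 46 bases. NUP50 held an E-box at 174, the NRF1 motif at 56 and the ETS core at 8 bases, and IPO13 held none of the 4. Distances run from the start site. Among the 36 tested genes with a promoter entry the ETS core was found in 11 (30.6%), against 10.2% of 27305 RefSeq genes. The E-box was found in 7 (19.4%, against 7.73%), the NRF1 motif in 3 (8.33%, against 1.28%) and CCAAT in 17 (47.2%, against 37.0%). GGGCGG, the core bound by SP1, was found in 21 (58.3%, against 46.2%) and the cyclic AMP response element (TGAC followed by GTCA) in 3 (8.33%, against 2.03%), and neither is capitalised above. Of the 12 genes that fell at 250 nM, 5 held the ETS core (NUP58, NUP88, NUP50, NUP160 and NUP54), 2 the E-box (NUP50 and TNPO2), 2 the NRF1 motif (NUP50 and NUP62) and 4 CCAAT (NUP88, TNPO1, TNPO2 and XPO6). GGGCGG was held by 7 of them and the cyclic AMP response element by 0. In these counts a gene holds a motif when the window of any of its listed start sites does. A match describes these letters only, and binding was not measured. The RefSeq genes include many that were not measured or not expressed here.

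The first comparison asked which of these transcripts changed within 8 h at 250 nM. Of the 40 genes tested, 12 fell and 2 rose (limma adjusted p under 0.05 over all 7178 genes, cell line as a block). That is 30% lower and 5% higher, against 13.1% lower and 15.2% higher among all genes tested, and 35% changed in either direction, against 28.3%. The nucleoporins and the carriers differed in their counts: 9 of 20 nucleoporins fell and 1 rose, whereas 3 of 20 carriers fell and 1 rose, and the difference between these counts was not tested. Counts by role below hold few genes each, and are to be read against the 13.1% lower and 15.2% higher among all genes tested. The changes were small. The median log2 fold change was -0.08 over the 40 genes, -0.16 over the nucleoporins and -0.01 over the carriers, against 0.03 over all genes tested, and only NUP58 changed by 2-fold or more.

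The count depends on having all lines. It was 9 without SkMel-1 (22.5%, against 19.8% of all genes tested) and 9 without SkMel-5 (22.5%, against 25.6%, so below the share of all genes). Without SkMel-28 it was 10 (25%, against 19.8%), without SkMel-19 it was 10 (25%, against 17.9%) and without Malme3M it was 12 (30%, against 18.7%). The share of lower genes in these 5 fits was 17.5%, 17.5%, 20%, 20% and 25%, against 9.57%, 11.9%, 9.82%, 9.06% and 9.54% of all genes. The 9 genes called in every one of these 5 fits were NUP58, NUP62, NUP54, NUP88, NUP50, NUP153, NUP160, NUP93 and IPO13. The other 5, NUP85, NUP155, TNPO1, TNPO2 and XPO6, were called in 0 to 2 of them. With the mean over all probe sets of a gene in place of the brightest one, NUP88, NUP54 and TNPO2 no longer passed (limma adjusted p = 0.0548, 0.2 and 0.414), and IPO7 and KPNB1 passed (limma adjusted p = 0.0299 and 0.0478, both lower). The only other probe set of NUP88 and that of NUP54 lay below the filter (mean signals 3.6 and 7.4). TNPO2 also has a probe set below it (8.5).

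**Figure D1:**
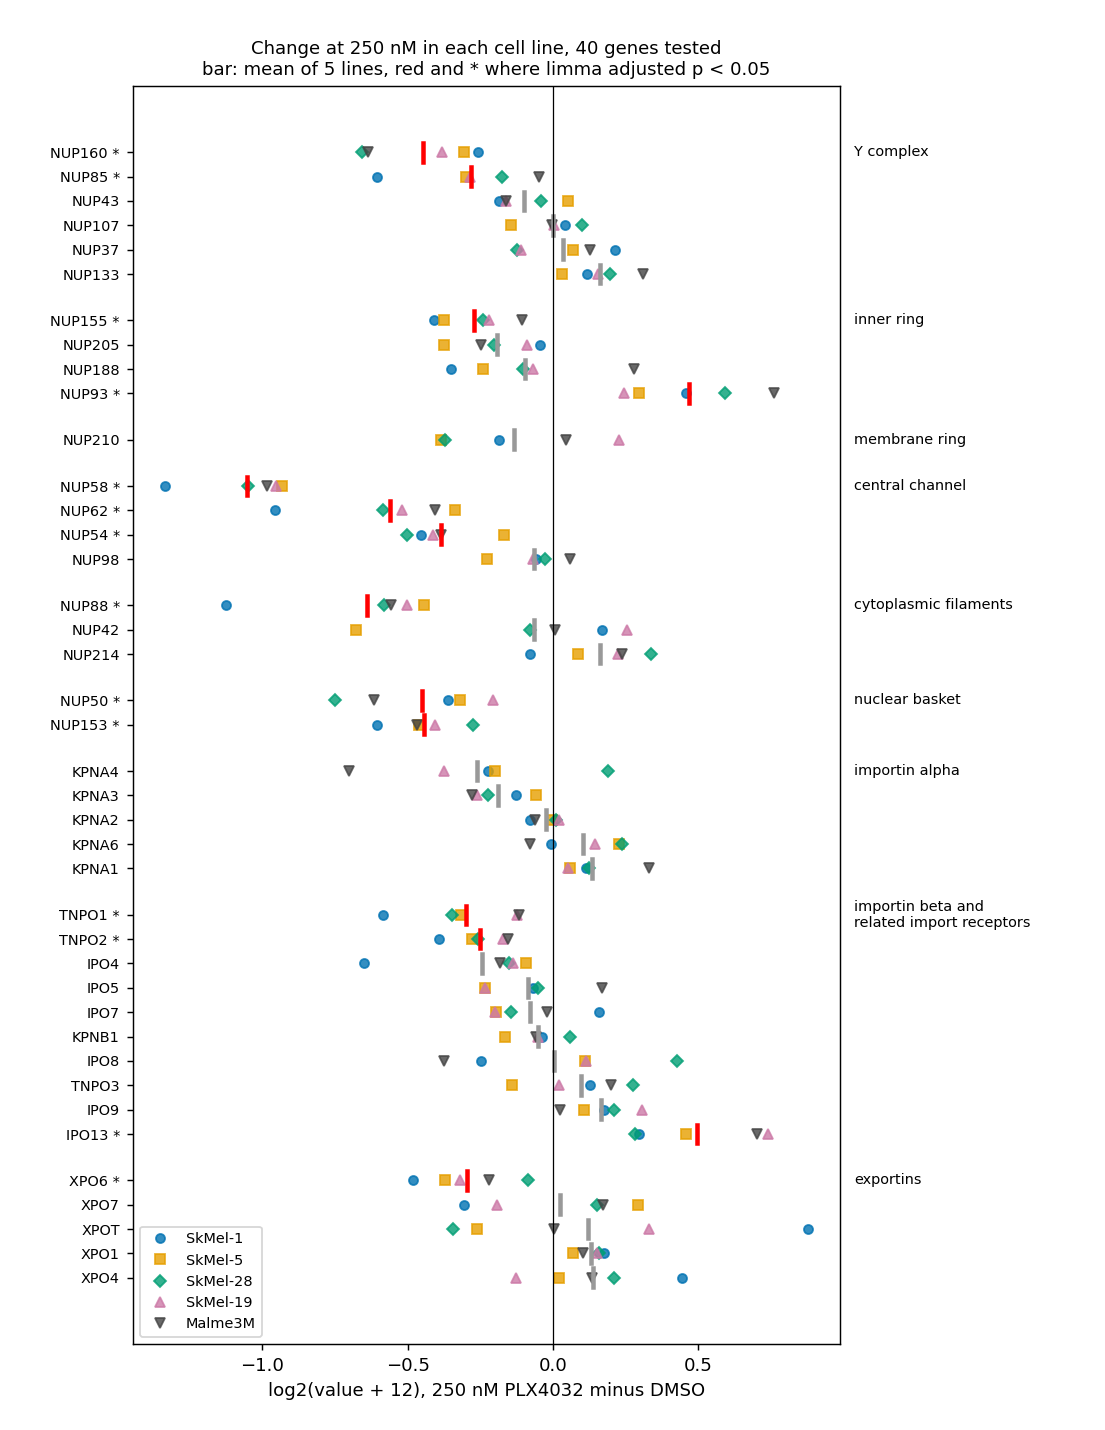
Change in log2(value + 12) at 250 nM against DMSO for the 40 genes tested, grouped by role. Each point is 1 cell line and each bar the mean of 5 lines, red where limma adjusted p was under 0.05. NUP58, at a mean of -1.05, lies farthest to the left, and NUP93 (0.47) and IPO13 (0.50) are the only red bars to the right of 0.

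The largest fall was in the central channel. NUP62, NUP58 and NUP54 form a complex that lines the channel with phenylalanine-glycine repeats, and all 3 fell. NUP98, another repeat nucleoporin, stood at -0.06 on the log2 scale with the probe set reported (limma adjusted p = 0.578). Its other probe sets differed, with mean changes of -0.51, lower in all 5 lines, and -0.05. NUP58 gave signals of 633, 651, 395, 251 and 406 in DMSO and 244, 335, 185, 124 and 199 at 250 nM. It was lower with drug in every line, although SkMel-5 with drug remained above SkMel-19 without it, so the groups overlap. The fall was 2.07-fold (log2 fold change -1.05, SE 0.10, limma adjusted p = 0.000305, n = 5 lines), and it ranged only from -0.93 in SkMel-5 to -1.34 in SkMel-1.

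NUP62 signals were 1434, 1433, 2294, 1519.6 and 2436 in DMSO and 734, 1132, 1524, 1055 and 1836 at 250 nM. SkMel-28 and Malme3M were high in both groups, and on the log2 scale SkMel-1 showed the largest step down (-0.95). The mean fall was 1.48-fold (log2 fold change -0.56, SE 0.09, limma adjusted p = 0.00353), and the other probe set of NUP62 was lower in all 5 lines (mean -0.36). NUP54 fell less (log2 fold change -0.39, SE 0.08, limma adjusted p = 0.00923), also in all 5 lines.

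At the cytoplasmic face, NUP88, the partner of NUP214 at the filaments, fell, and NUP214 itself did not pass. NUP88 signals were 1297, 888, 1287, 965 and 933 in DMSO and 588, 650.4, 856, 678 and 631 at 250 nM. Every DMSO array lay above every 250 nM array. The groups did not overlap in 1 of the 40 genes, against 1.85% of all genes tested (1.31% with the drug group lower and 0.543% with it higher), and 1 gene is too few to set apart from that share. The fall was 1.56-fold (log2 fold change -0.64, SE 0.11, limma adjusted p = 0.00345), with SkMel-1 at -1.13 and the other lines between -0.58 and -0.44. NUP214 gave a mean log2 change of 0.16 (limma adjusted p = 0.213) and NUP42, which binds the mRNA export factor GLE1, one of -0.07 (limma adjusted p = 0.75), with SkMel-5 at -0.68 and SkMel-19 at 0.25.

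Of the basket, both NUP genes fell, whereas TPR, its long filament protein, stood at 0.08 (limma adjusted p = 0.609). NUP153, which tethers the basket to the pore, gave 1784, 2163, 1412, 1857 and 2796 in DMSO and 1169.9, 1567, 1166, 1399 and 2016 at 250 nM. Malme3M was the highest line in both groups and SkMel-28 the lowest, and each line was lower with drug (log2 fold change -0.44, SE 0.07, limma adjusted p = 0.00266). NUP50, a cofactor that helps importin alpha release its cargo, gave 2472, 4024, 3020.0, 1854 and 3678 in DMSO and 1922, 3219, 1792, 1604 and 2396 at 250 nM. It was lower in every line, by most in SkMel-28 (-0.75) and by least in SkMel-19 (-0.21), and the groups overlap (log2 fold change -0.45, SE 0.09, limma adjusted p = 0.00588). Its other probe sets above the filter gave mean changes of -0.51 and -0.64.

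The scaffold was mixed. Of 6 Y complex genes 2 fell, NUP160 and NUP85, and none rose (33.3%, against 28.3% of all genes tested). NUP160 gave 466, 457, 439, 439.6 and 216 in DMSO and 388, 367, 274, 335 and 135 at 250 nM, with Malme3M far below the other lines in both groups (log2 fold change -0.45, SE 0.10, limma adjusted p = 0.0116). NUP85 fell by less (log2 fold change -0.28, SE 0.09, limma adjusted p = 0.0411). The log2 fold changes of the other 4 were -0.00075 for NUP107, 0.03 for NUP37, -0.10 for NUP43 and 0.16 for NUP133, and NUP133 was higher in all 5 lines (limma adjusted p = 0.149).

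In the inner ring, NUP155 fell (log2 fold change -0.27, SE 0.08, limma adjusted p = 0.0356) and NUP93 rose. NUP93 links the inner ring to the channel complex of NUP62, NUP58 and NUP54, and it moved the opposite way to those genes. Its signals were 809, 1124, 945, 1181 and 1357 in DMSO and 1114, 1383, 1428, 1399.8 and 2304 at 250 nM. All 5 lines were higher with drug, and Malme3M reached the highest value (1.38-fold on average, log2 fold change 0.47, SE 0.09, limma adjusted p = 0.0062). NUP205 was lower in all 5 lines but did not pass (-0.19, limma adjusted p = 0.072), and NUP188, its paralogue, had -0.10 (limma adjusted p = 0.507). NUP210, which spans the membrane, gave 341, 548, 99.4, 233 and 804 in DMSO and 298, 417, 74.1, 275 and 829 at 250 nM. It was lower in 3 lines and higher in 2, and the lines differed by far more than the doses (-0.13, limma adjusted p = 0.407).

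**Figure D2:**
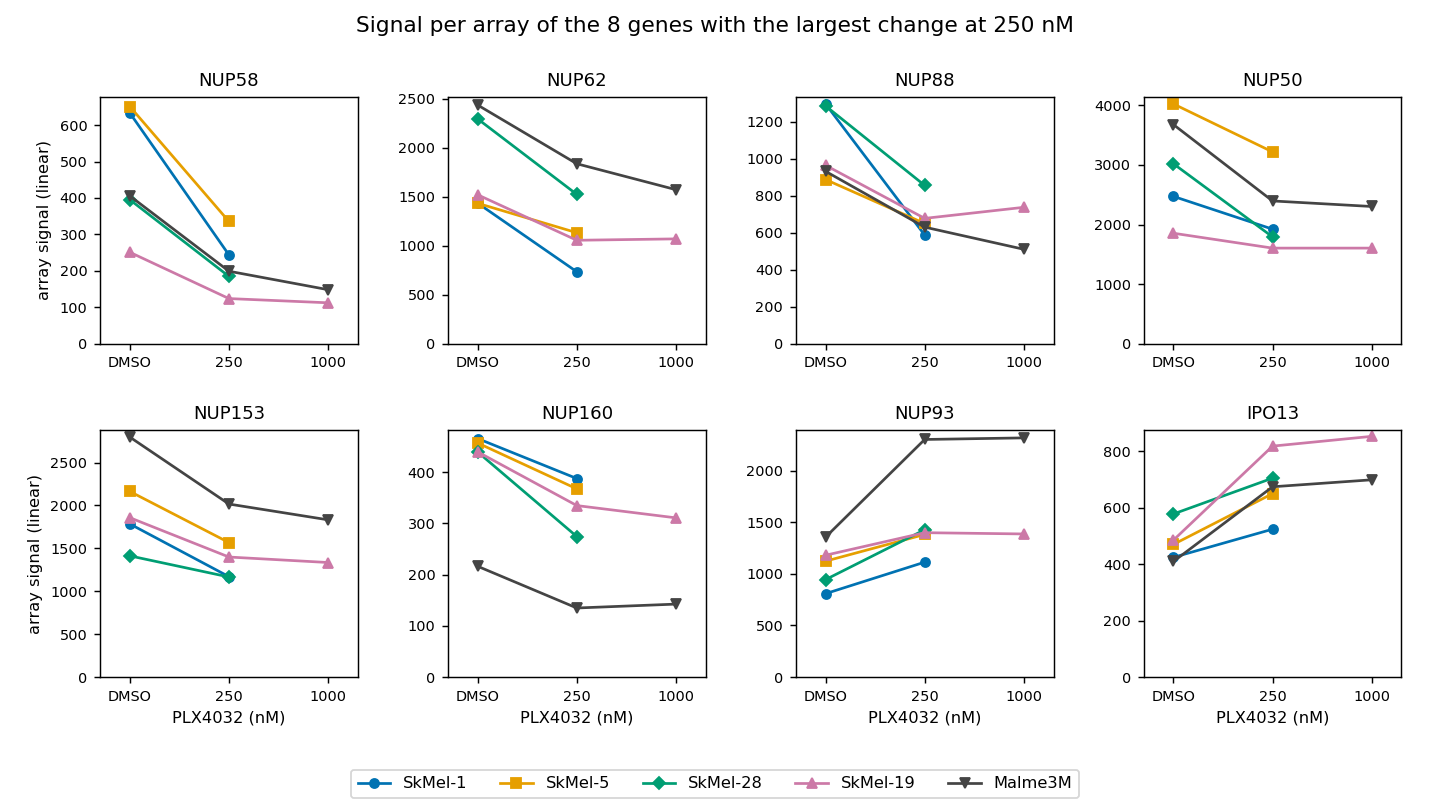
Array signal on a linear axis at DMSO, 250 nM and 1000 nM PLX4032 for the 8 genes with the largest change at 250 nM, 1 line per cell line. At 250 nM the 6 nucleoporins in the first 6 panels are lower than DMSO in every line, and NUP93 and IPO13 are higher in every line.

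Among the carriers, none of the 5 importin alpha genes tested passed (0%, against 28.3% of all genes tested). KPNA3, the member with the smallest p, gave 1894, 1676, 1027, 1858 and 1588 in DMSO and 1732, 1607, 877, 1547 and 1308 at 250 nM. It was lower in all 5 lines by a small step (log2 fold change -0.19, SE 0.07, limma adjusted p = 0.0638), and it passed with median centring. KPNA2, an importin alpha of dividing cells, had a change of -0.02 (SE 0.04), KPNA1 of 0.13, KPNA6 of 0.10 and KPNA4 of -0.26, the last with Malme3M at -0.70 and SkMel-28 at 0.19.

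Among importin beta and the 9 related import receptors tested, 2 fell and 1 rose (30%, close to the 28.3% of all genes tested). TNPO1, or transportin, which imports hnRNP proteins, fell (log2 fold change -0.30, SE 0.08, limma adjusted p = 0.0264), as did its close paralogue TNPO2 (log2 fold change -0.25, SE 0.08, limma adjusted p = 0.0436), each in all 5 lines. The 4 other probe sets of TNPO1 had mean changes between -0.25 and -0.38, whereas those of TNPO2 above the filter gave -0.30 and 0.10. The TNPO1 probe sets at -0.25 end in _x_at, so their probes may also match similar transcripts, and not all were lower in every line. TNPO3, which imports SR splicing factors, had a change of 0.10 (limma adjusted p = 0.402). KPNB1, importin beta itself, had one of -0.05 (SE 0.04, limma adjusted p = 0.389), and its 5 dimmer probe sets gave mean changes between -0.27 and -0.16. The probe set at -0.27 also ends in _x_at.

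IPO13, which imports some cargoes and exports others, was the carrier that rose. Its signals were 424, 469.8, 578, 485 and 409 in DMSO and 524, 649.6, 704, 818 and 674 at 250 nM. Each line was higher with drug, SkMel-19 and Malme3M by the most (0.74 and 0.70), and the groups overlap. The mean rise was 1.41-fold (log2 fold change 0.50, SE 0.10, limma adjusted p = 0.00736). The histone carriers IPO9 (0.16, limma adjusted p = 0.108, higher in all 5 lines) and IPO4 (-0.24, limma adjusted p = 0.103, lower in all 5 lines) did not pass. The dimmer probe set of IPO9 gave a mean change of 0.04, lower in 3 lines and higher in 2. IPO5, IPO7 and IPO8 had changes of -0.08, -0.08 and 0.0044, the last of which turns negative with median centring. The 3 dimmer probe sets of IPO7 gave mean changes between -0.41 and -0.21.

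Of 5 exportins 1 fell and none rose (20%, against 28.3% of all genes tested). The gene that fell was XPO6, which exports actin with profilin. It gave 1017, 818, 1044, 1003 and 583 in DMSO and 725, 629.8, 983, 800.4 and 498 at 250 nM, lower in every line but with overlapping groups (log2 fold change -0.30, SE 0.08, limma adjusted p = 0.0288). Both XPO6 probe sets end in _x_at, so their probes may also match similar transcripts. XPO1, the main exporter of proteins with a leucine-rich export signal, was higher in all 5 lines by a small step and did not pass (log2 fold change 0.13, SE 0.05, limma adjusted p = 0.0579). It passed in the fit over all 12 arrays.

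XPOT, which exports tRNA, split between lines. Its signal went from 1555 to 2864 in SkMel-1 and from 1463 to 1841 in SkMel-19, but from 1522 to 1268 in SkMel-5 and from 1543 to 1212 in SkMel-28, with 2256 and 2263 in Malme3M. The mean change was 0.12 (SE 0.16, limma adjusted p = 0.598), with the largest SE of the 40 genes. XPO4, which exports the translation factor eIF5A, had 0.14, and XPO7 0.02, lower in 2 lines and higher in 3 and negative on average with median centring.

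Across lines, 15 of the 40 genes (37.5%) were lower at 250 nM in every line, against 16.6% of all genes tested, and 6 (15%) were higher in every line, against 20.9%. The number of the 40 that were lower was 27 in SkMel-1, 27 in SkMel-5, 24 in SkMel-28, 25 in SkMel-19 and 23 in Malme3M. Their median change per line lay between -0.18 (SkMel-5) and -0.06 (Malme3M), and that of all genes tested between 0.01 and 0.05.

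Other genes of nuclear transport, from lists chosen with earlier results of these data known, are given by their counts, to be read against the 28.3% of all genes tested that changed at 250 nM. Of 10 nuclear pore genes with other names, 2 fell and 1 rose (30%), with a median of -0.12. SEH1L, of the Y complex, fell by the most (-0.88, SE 0.09, limma adjusted p = 0.000404), NDC1, which spans the membrane, fell (-0.27, SE 0.09, limma adjusted p = 0.0489), and GLE1, which activates mRNA release at the filaments, rose (0.36, SE 0.10, limma adjusted p = 0.0252). Of 9 genes of the RAN cycle and of other transport receptors 2 fell and none rose (22.2%), with a median of -0.03. They were RCC1, the exchange factor that loads RAN with GTP in the nucleus (-0.57, SE 0.10, limma adjusted p = 0.00451), and RANBP1, which helps return RAN to its GDP form (-0.38, SE 0.08, limma adjusted p = 0.0108). RAN itself (-0.09) and the exportin of importin alpha, CSE1L (-0.03), did not pass.

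Of 15 mRNA export genes 3 fell and none rose (20%), with a median of -0.13. NXT1, the partner of the export receptor NXF1, fell by the most (-0.75, SE 0.10, limma adjusted p = 0.00105), and NCBP2, of the cap-binding complex (-0.32), and PCID2, of the TREX-2 complex (-0.29), fell as well. Of 11 genes of the nuclear lamina and of the proteins that join it to the cytoskeleton, 3 fell and 2 rose (45.5%), with a median of 0.06. The nesprin genes SYNE1 (0.74, SE 0.19, limma adjusted p = 0.0193) and SYNE2 (0.62, SE 0.14, limma adjusted p = 0.0112) rose, and LBR, the lamin B receptor, fell (-0.57, SE 0.11, limma adjusted p = 0.0075).

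The second comparison set 1000 nM against DMSO in SkMel-19 and Malme3M. It shares its DMSO arrays with the 250 nM comparison. Of the 40 genes 3 fell and 1 rose, that is 7.5% lower and 2.5% higher, against 5.89% and 5.29% of all genes tested, and 10% in either direction, against 11.2%. The genes that fell were NUP58 (2.35-fold, log2 fold change -1.23, SE 0.16, limma adjusted p = 0.0107, n = 2 lines), NUP62 (log2 fold change -0.56, SE 0.10, limma adjusted p = 0.0255) and NUP153 (log2 fold change -0.54, SE 0.09, limma adjusted p = 0.0197), and the gene that rose was IPO13 (1.71-fold, log2 fold change 0.78, SE 0.11, limma adjusted p = 0.0129). NUP54, with the next smallest p, did not pass (log2 fold change -0.49, SE 0.12, limma adjusted p = 0.051), and neither did NUP88 (limma adjusted p = 0.0512). In a fit over all 12 arrays, 11 genes passed (27.5%, against 13.6% of all genes), 9 lower (22.5%, against 7.34%) and 2 higher. There the 5 lines share 1 estimate of error. The estimate of the change at 1000 nM also draws on the 250 nM changes of the lines that did not receive 1000 nM. Without the trend on mean level NUP62 did not pass at 1000 nM (limma adjusted p = 0.0516).

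Signals at 0, 250 and 1000 nM show how far the doses differed. NUP58 stood at 251, 124 and 112 in SkMel-19 and at 406, 199 and 148 in Malme3M. IPO13 stood at 485, 818 and 852 in SkMel-19 and at 409, 674 and 698 in Malme3M. In both genes the step from DMSO to 250 nM was larger than the step from 250 to 1000 nM. NUP62 stood at 1519.6, 1055 and 1069.7 in SkMel-19 and 2436, 1836 and 1572 in Malme3M, and NUP153 at 1857, 1399 and 1335 and at 2796, 2016 and 1832. NUP54 stood at 879, 658 and 671 in SkMel-19 and at 982, 749 and 645 in Malme3M. In these 2 lines alone the log2 fold changes at 250 nM and at 1000 nM were -0.97 and -1.23 for NUP58, -0.46 and -0.56 for NUP62, -0.44 and -0.54 for NUP153, and 0.72 and 0.78 for IPO13.

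**Figure D3:**
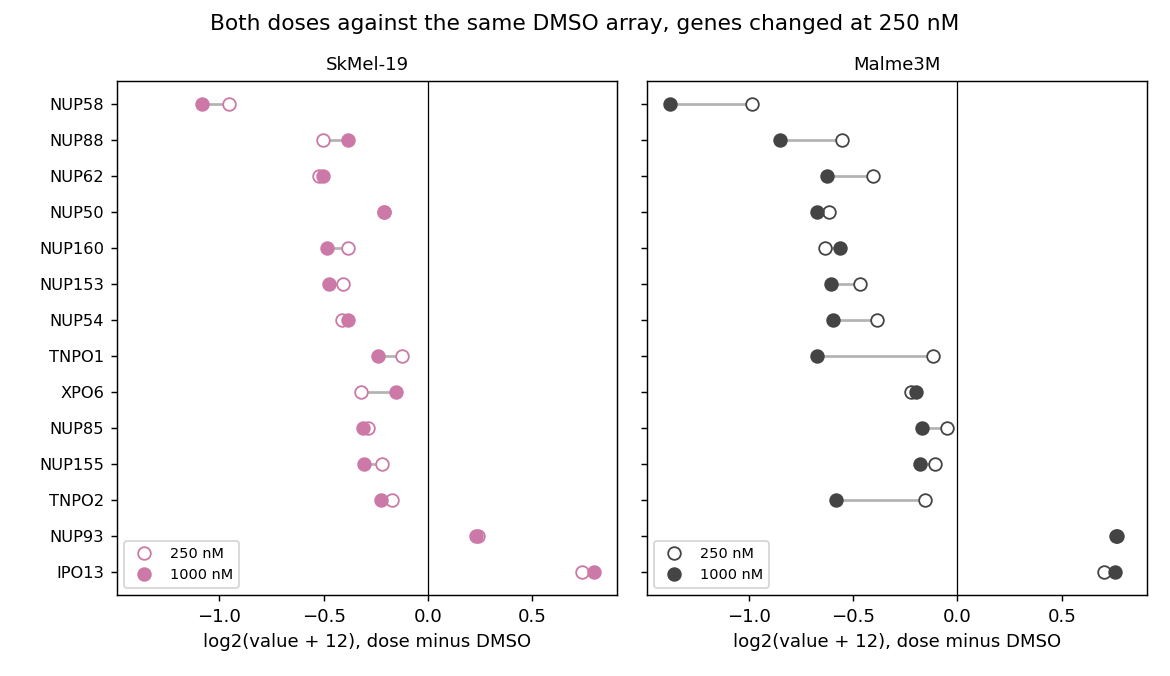
Change in log2(value + 12) from DMSO at 250 nM (open) and 1000 nM (filled) in SkMel-19 and Malme3M, for the 14 genes called at 250 nM. Both doses are set against the same DMSO array. In Malme3M, TNPO1 goes from -0.12 to -0.68 and TNPO2 from -0.16 to -0.58.

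The third comparison, 1000 nM against 250 nM, gave no call. With limma 0 of the 40 genes and 0 of the 7178 tested (0%) passed, and 1 and 75 had an unadjusted p under 0.05. That gene was TNPO1 (log2 fold change -0.34, SE 0.14, limma adjusted p = 0.999), with signals of 2342, 2148 and 1981 in SkMel-19 and 1206, 1111 and 750.3 in Malme3M at the 3 doses. The step lay mostly in Malme3M (-0.56, against -0.12 in SkMel-19). The next smallest p-values were those of TNPO3 (-0.25, SE 0.12), IPO7 (-0.21, SE 0.12), TNPO2 (-0.24, SE 0.14) and NUP58 (-0.26, SE 0.16), and for TNPO3, IPO7 and TNPO2 too the value in SkMel-19 was close to 0 (-0.06, -0.0040 and -0.05) and that in Malme3M lower (-0.45, -0.41 and -0.43). With 1 array per line and dose, the difference between the lines was not tested.

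Without drug the lines differed in their levels of many of these genes. Over the 40 genes the highest DMSO line stood at a median of 1.91 times the lowest, 14 genes differed by 2-fold or more and 7 by less than 1.5-fold. In 39 of the 40 this range was wider than the mean change at 250 nM. These are single arrays per line, so the values are described and not tested, and the genes named here were chosen after their values were seen. The widest range was that of NUP210 (8.09-fold), from 99.4 in SkMel-28 to 804 in Malme3M. IPO5 ranged 3.7-fold, from 927 in SkMel-28 to 3430.3 in SkMel-19, NUP37 3.67-fold, from 441 in SkMel-1 to 1619 in SkMel-19, and IPO7 3.4-fold, from 1460.5 in Malme3M to 4960.2 in SkMel-28. The ranges were narrowest for KPNB1 (1.3-fold, 7882 to 10210.1), XPO1 and IPO13 (both 1.41-fold), KPNA6 (1.44-fold), NUP43 (1.45-fold) and NUP88 (1.46-fold). No line was highest throughout: SkMel-5 was highest for 11 genes, Malme3M for 10, SkMel-28 and SkMel-19 for 8 each and SkMel-1 for 3, and the lowest values fell to SkMel-5 in 10 genes, SkMel-1 and Malme3M in 9 each, SkMel-28 in 8 and SkMel-19 in 4.

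**Figure D4:**
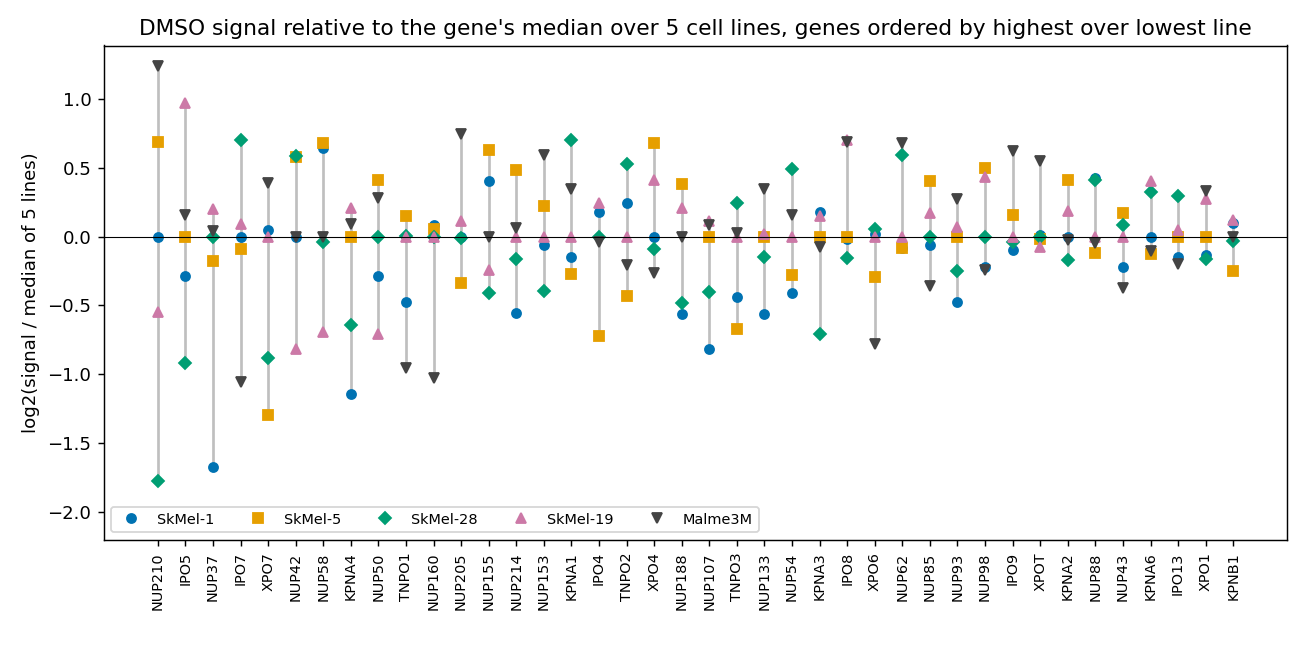
DMSO signal of each cell line divided by the median of the 5 lines for the same gene, on a log2 scale, for the 40 genes tested, ordered by the ratio of highest to lowest line. NUP210 spans the widest range (8.09-fold) and KPNB1 the narrowest (1.3-fold), and levels of different genes cannot be compared in this plot.

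The 2 genes below the filter were not tested. KPNA5, an importin alpha, was under 85.7 on all 12 arrays. NUP62CL, whose protein resembles the end of NUP62, was under 85.7 on 10 arrays, and was highest in SkMel-5 (92.1 in DMSO and 104 at 250 nM). In the fit without a filter neither passed at 250 nM (limma adjusted p = 0.903 for KPNA5 and 0.704 for NUP62CL).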

How the data were processed

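Per the submitters' processing notes the arrays were processed with the Affymetrix software GCOS, whose version is not stated. The authors deposited a table of linear intensity values with 22277 probe sets and 12 arrays. The summarisation of probes is not stated in the labels. Analyses used log2(value + 12), with 12 taken from the 20th percentile of the whole table. After removing 62 control probe sets, 19064 probe sets carried 1 gene symbol, 1043 several and 2108 none. Those with several or none were not used. The brightest probe set on average stood for its gene. All 42 symbols matched RefSeq by Entrez ID.

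Comparisons used limma 3.58.1 in R 4.3.3 (prior variance with a trend, p-values adjusted by Benjamini-Hochberg over 7178 genes, calls under 0.05) and a block for the cell line, over 10 arrays at 250 nM (4 residual degrees of freedom) and 6 at 1000 nM (2). The labels give the pairing by line, and deviations from the group means correlated at 0.898 to 0.932 within a line. The labels do not say whether cultures were repeated. The limma fits and calls were tested on simulated log2 values. These were drawn with normal errors from a fit to the same data, so they cannot show whether the real arrays depart from that model. The choice of probe sets, the filter, the motif search and the flags were not part of that test. Members and gene lists were chosen with earlier results of these data known.

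Every member could be named. Signals per array are given for the 8 members with the largest change called at 250 nM, for the member with the smallest p in each role and for those called, or with the 5 smallest p, in the other comparisons. Of the last, TNPO3, IPO7 and TNPO2 are given by their log2 changes only. XPOT, NUP62CL and KPNA5 were added after their values were seen. RefSeq promoters were on hand for 37 of the 42 genes. Alternatives tried are listed under the closing part on processing. Figures used matplotlib 3.10.9 in Python 3.11.15.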

Additional observations from a re-analysis of the deposited data

Results flagged for a closer look

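In 40 genes tested, the 5 lines were examined for a line that stands apart from the other 4, once for the change at 250 nM and once for the DMSO signal. Chance gives about 1 such case in 20, and 3 were found for the change and 4 for the signal. The fall of NUP88 was larger in SkMel-1 (-1.13) than in the other lines (-0.58 to -0.44). IPO4, not called, stood at -0.65 in SkMel-1, against -0.18 to -0.09. KPNA1 stood at 0.33 in Malme3M, against 0.05 to 0.12 elsewhere, with the probe set reported. The dimmer probe sets of KPNA1 had mean changes between -0.10 and 0.20, each lower in some lines and higher in others. In DMSO, NUP160 stood at 216 in Malme3M, against 439 to 466 in the other lines, and NUP37 at 441 in SkMel-1, against 1249 to 1619. KPNA3 stood at 1027 in SkMel-28, against 1588 to 1894, and XPOT at 2256 in Malme3M, against 1463 to 1555.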

How the results depend on the processing

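No gene called in a comparison changed direction in it under any setting tried. Of the 40 genes, 8 changed sign under some setting at 250 nM (IPO8 and XPO7 with median centring), 7 at 1000 nM and 23 between the doses. None of these was called in that comparison. At 250 nM, 14 genes passed with a pseudocount of 1 (35%, against 27.8% of all genes) or 50 (35%, 28.4%), 12 without a filter (28.6%, 13.8%), 12 with the filter at the 60th percentile (35.3%, 30.6%), which removes NUP58 and NUP160, 13 with quantile normalization (32.5%, 28.4%), 15 with median centring (37.5%, 27%), 13 with the mean over probe sets (32.5%, 26.1%) and 13 with no trend (32.5%, 26.1%). With the mean over probe sets NUP88 (-0.34, limma adjusted p = 0.0548), NUP54 (-0.25, limma adjusted p = 0.2) and TNPO2 (-0.12, limma adjusted p = 0.414) lost their call. Their reported probe sets are there averaged with dimmer ones, which for NUP88 and NUP54 lie below the filter. Without _x_at probe sets, a setting chosen after seeing the data, XPO6 has no probe set left. Leaving out each line in turn gave 9 to 12 genes called, 7 to 10 lower and 2 higher, and 1288 to 1836 of all genes tested. The median change of the 40 genes at 250 nM stayed within 1 SD of its value in the 5 lines (0.05).

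With no replicate block, that is without pairing by cell line, 0 of the genes passed at 250 nM (0 lower, 0 higher) and 13 of all genes tested, and at 1000 nM 0 genes here and 0 in all. In the 6 arrays of SkMel-19 and Malme3M alone, also chosen after seeing the data, 4 genes passed at 250 nM (10%, against 11.3% of all genes), 3 lower and 1 higher, and 814 in all. At 250 nM the fit over all 12 arrays called 15 genes, 12 lower and 3 higher (37.5%, against 31.7% of all genes), and XPO1 was the gene gained. At 1000 nM the fit over all 12 arrays called 11 genes, 9 lower and 2 higher (27.5%, against 13.6% of all genes). Its estimates at 1000 nM also draw on the 250 nM changes of the lines without that dose. At 1000 nM 5 genes were lower with median centring (12.5%, against 6.6%) and without _x_at probe sets (12.8%, against 6.37%). Of all genes tested 445 passed at 1000 nM without a filter, 530 with no trend and 460 with signals below 85.7 raised to that level, against 803. At 1000 nM leaving out a line leaves no error to test with. Median centring gave 873 higher and 1068 lower genes at 250 nM, against 1088 and 941. The comparison at 1000 nM rests on 2 lines.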

Other observations

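Probe sets of the same gene did not always give the same size of change at 250 nM. For KPNB1 the probe set reported, the brightest, had a mean log2 change of -0.05, and the 5 others lay between -0.27 and -0.16. For IPO7 the reported probe set had -0.08 and the 3 others -0.21, -0.30 and -0.41. With the mean over probe sets in place of the brightest, KPNB1 (log2 fold change -0.17, SE 0.06, limma adjusted p = 0.0478) and IPO7 (log2 fold change -0.25, SE 0.07, limma adjusted p = 0.0299) passed. For NUP98, 1 of 3 probe sets had -0.51, in all 5 lines, and the others -0.06 and -0.05, and the mean over them did not pass (log2 fold change -0.21, SE 0.08, limma adjusted p = 0.084). The 6 genes called at 250 nM that have another probe set above the filter had 11 such probe sets, of which 1, for TNPO2, had the opposite sign.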
